A study of Mus musculus with 30 samples.

Results

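The genes described here are 8 genes of steroid and hormone production in Leydig cells, the interstitial cells of the testis: Star, Hsd3b1, Hsd3b6, Hsd17b3, Insl3, Lhcgr, Fdx1 and Scarb1. They were chosen by name. Only probe sets whose annotation gave a single one of these symbols were used, and where a gene had several, the one of greatest average signal across the 30 arrays stood for it. Of the 8 genes, 7 had such a probe set among the 17097 genes of the series, and these 7 genes held 9 probe sets. The Lhcgr gene, which encodes the receptor for luteinizing hormone, was not analysed here.

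The series compared mice lacking ClpP, a protease of the mitochondrial matrix, with wild-type littermates, all on a C57BL/6 background. Total RNA of testis, liver, muscle, brain and heart was hybridised to 30 expression arrays, with 3 replicates in every one of the 10 groups. Knockout arrays are labelled ClpP KO and control arrays WT, and the labels give neither age nor whether the 3 arrays of a group are separate animals. Values are log2 expression after RMA, array medians lay between 3.24 and 3.38, and a log2 level under 4 is treated here as near that floor. Clpp itself changed by -3.23 ± 0.19 in testis and by -5.39 ± 0.19 in liver (log2 difference ± SE, n = 3 per genotype).

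Leydig cells make testosterone from cholesterol in response to luteinizing hormone. Cholesterol enters the cell partly through the lipoprotein receptor Scarb1, and Star moves it to the inner mitochondrial membrane, where the side-chain cleavage enzyme Cyp11a1, supplied with electrons by the ferredoxin Fdx1, turns it into pregnenolone. The 3-beta-hydroxysteroid dehydrogenases Hsd3b1 and Hsd3b6, the hydroxylase Cyp17a1 and the reductase Hsd17b3 complete the route, and Insl3 is a peptide hormone that Leydig cells secrete beside the steroid.

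Hsd3b1 and Hsd3b6 lie near each other on chromosome 3, with only a predicted pseudogene between them in the GRCm38.p6 gene table, and both rose in knockout testis while only the probe set of Hsd3b6 gave signal in liver. Their promoters are shown because of this shared and unshared pattern. The RefSeq table of promoters (build GRCm38.p6) held 6 of the 8 genes, Lhcgr among them, and did not list Star and Scarb1. The 250 bases before each start site are given 5′ to 3′ on the minus strand, at chr3:98859795-98860044 for Hsd3b1 and chr3:98814444-98814693 for Hsd3b6, with capitals marking the letters AGATAA, a core bound by GATA factors, or their reverse complement.
Hsd3b1: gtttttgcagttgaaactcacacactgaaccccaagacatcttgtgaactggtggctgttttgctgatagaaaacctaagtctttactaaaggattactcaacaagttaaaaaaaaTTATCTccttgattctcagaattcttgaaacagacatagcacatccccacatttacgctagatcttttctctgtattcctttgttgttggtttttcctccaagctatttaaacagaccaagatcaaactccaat
Hsd3b6: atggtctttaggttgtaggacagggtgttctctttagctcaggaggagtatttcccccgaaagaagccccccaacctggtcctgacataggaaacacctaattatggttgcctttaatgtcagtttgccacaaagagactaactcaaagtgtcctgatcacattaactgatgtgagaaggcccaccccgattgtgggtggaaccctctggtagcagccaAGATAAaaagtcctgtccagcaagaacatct

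The AGATAA letters began 134 bases before the start site in Hsd3b1, on the reverse strand, and 31 bases before it in Hsd3b6, on the forward strand, and the other 4 promoters in the table did not hold them. On either strand AGATAA was found in 9.99% of the 32851 promoters of the table. The letters CAAGGNCA, the site of steroidogenic factor 1, were in 0 of the 6 promoters and in 5.53% of all. Their inner letters CAAGG, which are part of CAAGGNCA, were in 5 of the 6, all but Hsd3b6, and in 46% of all. The cyclic AMP response element TGACGTCA and its part TGACG were in 0 of the 6, and in 1.55% and 17.8% of all. Such matches describe letters in these windows and show no binding.

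The wild-type arrays were examined first, to see in which tissues each gene was measured (background: 65.6% of genes differed between wild-type testis and wild-type liver, 33.8% being higher in testis and 31.8% lower). Star, Hsd3b1, Hsd17b3 and Insl3 were higher in testis, and Hsd3b6, Fdx1 and Scarb1 were higher in liver. Star stood at 7.17 ± 0.26 in wild-type testis (log2 level, SD, n = 3) and between 3.08 and 3.33 on average in the other 4 tissues. The Hsd3b1 mean was 8.37 ± 0.05 in testis and between 2.65 and 2.89 elsewhere. Hsd17b3, which makes testosterone from androstenedione, averaged 6.12 ± 0.30 in testis and between 2.38 and 2.47 elsewhere. These 3 genes were near the floor outside testis, and tissues next to each other in that low order had overlapping arrays.

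Insl3 averaged 12.0 ± 0.25 in wild-type testis, then 4.89 in heart, 4.50 in muscle, 4.30 in liver and 3.22 in brain. Its muscle arrays spread widely, from 3.91 to 5.22, and the highest was wild-type replicate 1, on which 12 spermatid genes had a median level of 4.83 against 2.72 to 2.83 on the other 5 muscle arrays. Hsd3b6 averaged 9.27 ± 0.45 in wild-type liver, 7.93 ± 0.48 in testis and between 2.60 and 2.74 in the other 3 tissues. Fdx1 was measured in every tissue, from 10.5 ± 0.14 in liver through 10.0 in heart, 9.44 in muscle and 9.18 ± 0.04 in testis to 7.43 ± 0.30 in brain. The wild-type means of Scarb1 were 8.10 ± 0.41 in liver, 7.58 ± 0.43 in testis, 5.50 in both muscle and heart and 4.20 in brain, and its liver and testis arrays overlapped. In the order of Insl3 levels, the arrays of heart, muscle and liver overlapped between neighbours and those of brain lay apart. Fdx1 and Scarb1 thus had signal in tissues without Leydig cells, and so did the probe set of Hsd3b6 in liver, where its relatives may add to it.

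In limma, Star was higher in wild-type testis than in wild-type liver by 3.85 ± 0.21 (log2 difference ± SE, adjusted p = 7.53e-15), Hsd3b1 by 5.57 ± 0.11, Hsd17b3 by 3.66 ± 0.12 and Insl3 by 7.70 ± 0.20. The differences were -1.34 ± 0.18 for Hsd3b6, -1.29 ± 0.13 for Fdx1 and -0.52 ± 0.22 for Scarb1 (adjusted p = 0.0455). The Scarb1 call was lost without testis replicate 2 (-0.27, adjusted p = 0.324) and without liver replicate 3 (-0.30, adjusted p = 0.290), and also without liver replicate 1 (-0.56, adjusted p = 0.0579). It was lost too with array weights (-0.34, adjusted p = 0.193). A fit with the replicate number as a block gave -0.12 (adjusted p = 0.718). That fit compared levels fitted for replicate 1 in place of group means, so it does not test this call. After median centring of each array the median difference of all genes moved from -0.02 to -0.62, and to -0.13 after a second quantile normalization. Under median centring the Scarb1 difference was -1.12, and no member's direction turned under either scaling.

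In testis, 6 of the 7 genes rose in knockout mice, Hsd3b1, Hsd17b3 and Hsd3b6 by the largest amounts, and Scarb1 fell (adjusted p below 0.05 in limma, over all 17097 genes). The background was high: 56.2% of all genes were called in testis, 32.8% as higher and 23.4% as lower. The 7 genes had a median difference of 1.55. The whole table of genes had 0.02, and the 5168 genes averaging 6 or more over all 30 arrays had 0.69. That average covers all 5 tissues, so these genes are not matched to the members on testis level. Genes with signal mainly in testis can be missing from them. For 6 of the 7 genes every knockout array lay above every wild-type array, which was also so for 35.3% of all genes, and Scarb1 had the reverse order, as did 28.2%. In whole tissue, more cells of a type and more RNA per cell cannot be told apart.

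**Figure D1:**
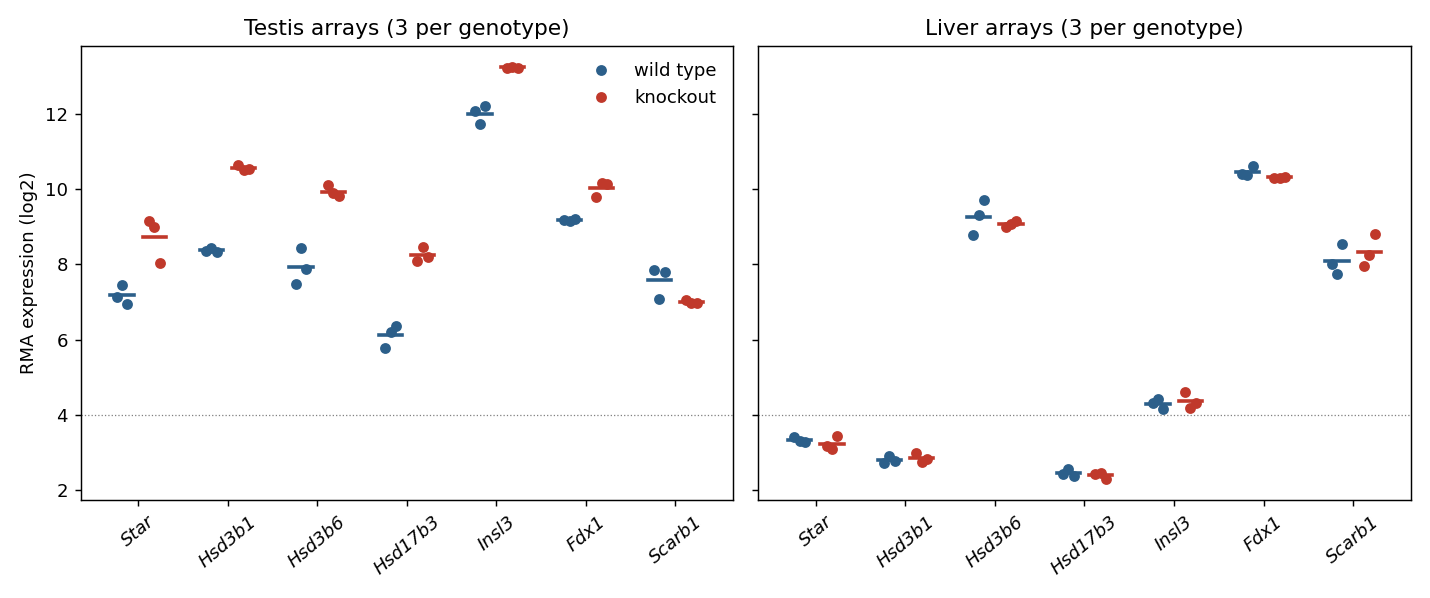
Log2 expression of the 7 measured genes on each testis array (left) and liver array (right), with points for single arrays, short lines for the mean of 3 arrays, and a dotted line at the level of 4. In testis the knockout points of 6 genes lie above their wild-type points and those of Scarb1 lie below, while in liver the genotypes of all genes but Fdx1 overlap.

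Scarb1, the receptor through which Leydig cells take up cholesterol esters from high-density lipoprotein, stood at 7.06, 6.97 and 6.96 on the knockout testis arrays and at 7.85, 7.08 and 7.81 on the wild-type arrays. The lowest wild-type array, replicate 2, was just above the highest knockout array, and the wild-type arrays spread more widely (SD 0.43 against 0.06). Scarb1 fell by 0.58 ± 0.22 (1.49-fold lower, adjusted p = 0.0302 in limma, n = 3 per genotype). It no longer passed when any of 4 arrays was left out: knockout replicate 2 (-0.57, adjusted p = 0.0688), knockout replicate 3 (-0.56, adjusted p = 0.0696), wild-type replicate 1 (-0.45, adjusted p = 0.143) or wild-type replicate 3 (-0.47, adjusted p = 0.124). The direction was the same with each array left out.

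Star, which carries cholesterol into mitochondria and sets the rate of steroid synthesis, stood at 9.15, 8.99 and 8.02 on knockout and at 7.14, 7.45 and 6.93 on wild-type testis arrays. Knockout replicate 3 was the lowest knockout array but still above all wild-type arrays. Star rose by 1.55 ± 0.21 (2.93-fold, adjusted p = 5.73e-07 in limma). With the testis arrays fitted alone, Star had an adjusted p of 0.0031 in limma. Its 3 probe sets changed alike, by 1.55, 1.54 and 1.54.

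Fdx1, the ferredoxin that passes electrons to mitochondrial cytochromes P450, stood at 9.79, 10.2 and 10.1 on knockout and at 9.17, 9.14 and 9.21 on wild-type testis arrays. Its wild-type arrays were close together (SD 0.04), and the knockout arrays were all higher. Fdx1 rose by 0.86 ± 0.13 (1.81-fold, adjusted p = 2.35e-06 in limma), beside a median of 0.69 among genes averaging 6 or more.

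Hsd3b1, the 3-beta-hydroxysteroid dehydrogenase found in steroid-making tissues, stood at 10.6, 10.5 and 10.5 on knockout and at 8.36, 8.43 and 8.33 on wild-type testis arrays. The SD was 0.06 in knockout and 0.05 in wild type, so the genotypes were well apart. Hsd3b1 rose by 2.19 ± 0.11 (4.58-fold, adjusted p = 8.16e-15 in limma), and 0.638% of all genes had a larger rise in testis.

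Hsd3b6, the form of the same enzyme that is typical of adult Leydig cells, stood at 10.1, 9.89 and 9.81 on knockout and at 7.47, 8.43 and 7.88 on wild-type testis arrays. The wild-type arrays were spread over nearly a whole log2 unit, and the highest of them remained below all knockout arrays. Hsd3b6 rose by 2.01 ± 0.18 (4.02-fold, adjusted p = 4.15e-10 in limma).

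Hsd17b3, the last enzyme on the way to testosterone, stood at 8.08, 8.47 and 8.20 on knockout and at 5.79, 6.21 and 6.37 on wild-type testis arrays. All knockout arrays were far above the wild-type range. Hsd17b3 rose by 2.13 ± 0.12 (4.37-fold, adjusted p = 1.33e-13 in limma), with 0.825% of all genes showing a larger rise.

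Insl3 stood at 13.2 on each of the 3 knockout testis arrays and at 12.1, 11.7 and 12.2 on the wild-type arrays. It rose by 1.23 ± 0.20 (2.34-fold, adjusted p = 8.63e-06 in limma), and 12.1% of all genes had a larger rise. On the knockout arrays 0% of genes had a higher value than Insl3. On the wild-type arrays between 0.257% and 0.485% of genes were above it.

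To compare the 7 genes with each other in testis, each gene was set against the median of the other 6 on the same array, and the knockout minus wild-type difference of that value was taken (SE from 3 against 3 arrays). That relative difference was 0.70 ± 0.16 for Hsd3b1, 0.64 ± 0.35 for Hsd3b6 and 0.35 ± 0.20 for Hsd17b3. It was -0.22 ± 0.36 for Star, -0.26 ± 0.25 for Insl3, -0.69 ± 0.30 for Fdx1 and -2.42 ± 0.40 for Scarb1. An exact two-sided permutation test gave p = 0.1 for Hsd3b1, Fdx1 and Scarb1, the smallest p that 3 against 3 arrays allow, and between 0.2 and 0.8 for the other 4 genes. No such test can pass 0.05 here.

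The 2 enzymes Cyp11a1 and Cyp17a1 and the regulator Nr5a1 complete the picture of the pathway. Cyp11a1 rose by 0.91 ± 0.14 in testis, from 6.81 ± 0.13 to 7.72 ± 0.20 (SD, n = 3; adjusted p = 2.89e-06 in limma). Cyp17a1 rose by 1.70 ± 0.36, from 9.94 to 11.6, and the nuclear receptor Nr5a1 (steroidogenic factor 1) by 1.30 ± 0.20, from 4.88 to 6.18. Cyp11a1 and Nr5a1 were named after their values had been seen.

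Other genes of steroid metabolism were counted in testis in the same way. Of 15 measured genes of 21 listed, 10 rose, 0 fell in limma and 5 were not called, with a median of 1.08. Of all genes 32.8% rose, and those averaging 6 or more had a median of 0.69. The largest rises were in Hsd17b11 (2.30 ± 0.16), a dehydrogenase of lipid droplets, Hsd17b12 (1.90 ± 0.22), which works mainly in fatty acid elongation, and the estrogen sulfotransferase Sult1e1 (1.70 ± 0.17). The list also holds genes with wider tasks, so its count does not speak of Leydig cells alone.

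Genes of cholesterol supply were called in both directions, as were all genes. Of 20 measured genes of 25 listed, 10 rose and 3 fell, beside 32.8% and 23.4% of all genes. Their median was 0.68, beside 0.69 among genes averaging 6 or more. The lysosomal cholesterol ester lipase Lipa rose by 1.94 ± 0.19, the outer mitochondrial membrane channel Vdac1 by 1.78 ± 0.12 and the lanosterol synthase Lss by 1.50 ± 0.37. The hormone-sensitive lipase Lipe fell by 4.23 ± 0.28 from a wild-type level of 8.35, the squalene synthase Fdft1 by 1.80 ± 0.25 and the sterol demethylase Cyp51 by 1.06 ± 0.23. Germ cells are known to express Lipe, and all 12 spermatid markers fell in the same arrays, as described below; their part in the fall of Lipe was not tested.

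Of 25 measured genes of luteinizing hormone signalling and Leydig cell regulation (29 listed), 16 rose and 2 fell, with a median of 0.81, beside 32.8% and 23.4% of all genes and a median of 0.69 among genes averaging 6 or more. The transcription factor Tcf21, a marker of interstitial progenitors, rose by 2.10 ± 0.24, the immediate early gene Egr1 by 2.09 ± 0.82 and the nuclear receptor Nr0b1 by 2.06 ± 0.12. Nr4a1, a nuclear receptor induced by luteinizing hormone, fell by 2.84 ± 0.64, and Prkar1a, a regulatory subunit of protein kinase A, by 0.75 ± 0.14. The adjusted p of Egr1 was 0.0314 in limma. The part of Egr1 or Nr4a1 in the changes of the steroidogenic genes was not tested.

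Lists of Leydig cell, fetal Leydig cell and adrenal genes were then counted in testis. Of 12 measured genes on a list of Leydig cell markers 9 rose and 0 fell in limma (median 1.41; 32.8% of all genes rose). The list is not independent of those above: 8 of the 12 genes, with 6 of the 9 rises, stand in the lists of steroid metabolism or of signalling and regulation as well. The largest rises were in the fatty acid-binding protein Fabp3 (2.39 ± 0.25), the adhesion molecule Vcam1 (2.03 ± 0.17) and the angiotensinogen gene Agt (1.98 ± 0.25). The summed signal of all 12 genes, as log2 of the sum of linear values, was between 13.8 and 14.2 on knockout and between 12.1 and 12.6 on wild-type arrays. Of the 6 measured genes on a list of fetal Leydig cells only Cyp26b1, a retinoic acid hydroxylase, was called (2.42 ± 0.25), and the other 5 had wild-type levels under 4. In the list of adrenal genes, 6 of 8 were under 4 in wild-type testis, among them Cyp11b1 at 2.46 and Cyp11b2 at 2.46. Of these 8 genes Mrap, an accessory protein of the corticotropin receptor, rose by 1.37 ± 0.30, and Dbh, an enzyme of noradrenaline synthesis, fell by 0.45 ± 0.14 at levels near the floor.

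The counts for other cell types stand beside a testis background of 32.8% of all genes that rose and 23.4% that fell. All 16 measured Sertoli cell markers rose, with a median of 1.67, led by Sox8, Inha and Rhox5. Their summed signal was 14.04 to 14.19 in knockout against 12.5 to 12.9 in wild type. All 11 macrophage markers rose (median 1.53; summed signal 10.2 to 10.6 against 8.52 to 8.82), with Mpeg1 at 2.80 ± 0.26. Of 6 peritubular myoid genes 3 rose, Myl9 (1.94 ± 0.42), Acta2 (1.51 ± 0.40) and Myh11 (1.37 ± 0.41). Actg2 alone fell (-4.61 ± 0.29), and whether its signal here comes from myoid cells was not tested. Of 7 endothelial genes 1 rose, at a median of 0.05, and 6 had wild-type levels under 4. Of 9 spermatogonial markers 7 rose (median 1.42), and of 9 spermatocyte genes 6 rose and 1 fell (median 1.17). All 12 spermatid markers fell, with a median of -4.51 and a summed signal of 11.5 to 12.5 against 15.6 to 15.9. The part of these cells in the rise of the steroidogenic genes was not tested.

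**Figure D2:**
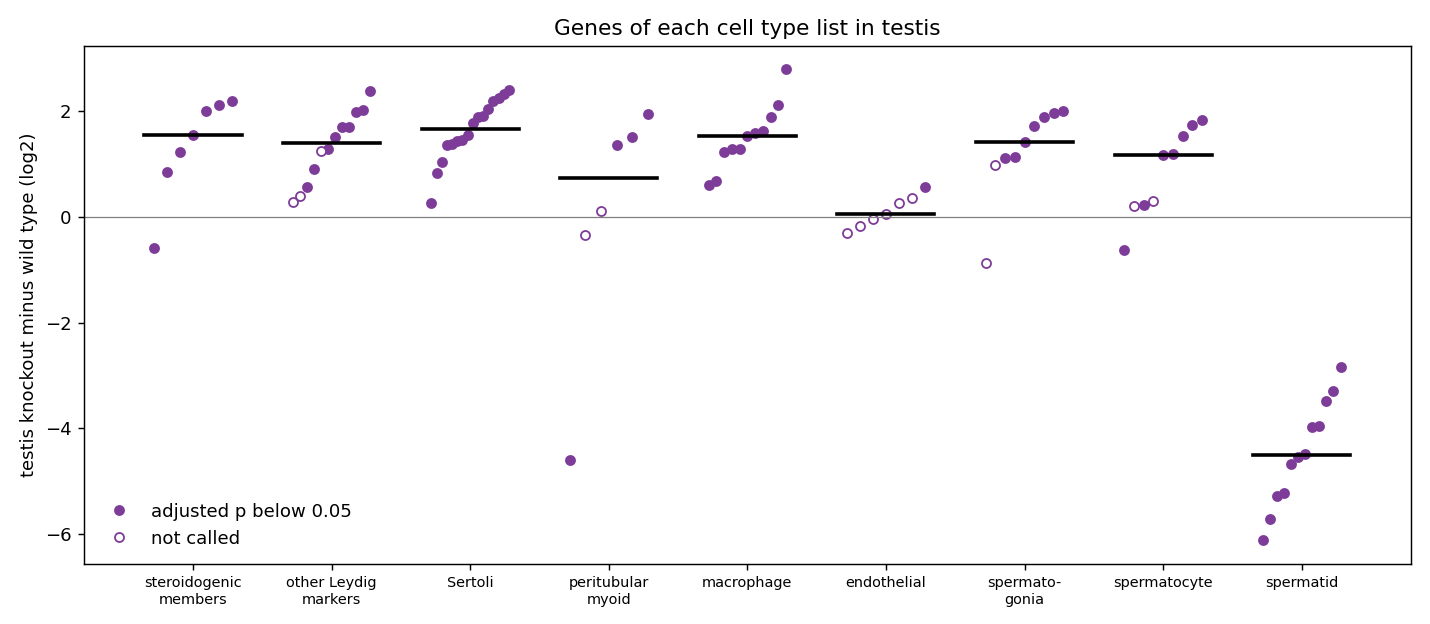
Knockout minus wild-type log2 difference in testis for each measured gene (points) of 9 lists, sorted within each list, with filled points for an adjusted p below 0.05 in limma and a black line at the list's median. The steroidogenic genes other than Scarb1 lie between 0.86 and 2.19, the Sertoli markers between 0.27 and 2.40 and the macrophage markers between 0.60 and 2.80, and the spermatid genes lie at a median of -4.51.

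Because Sertoli markers rose as well, each gene was set against the median of the 16 Sertoli markers on the same array. The knockout minus wild-type difference on this scale was 0.44 ± 0.09 for Hsd3b1, 0.37 ± 0.21 for Hsd17b3 and 0.25 ± 0.32 for Hsd3b6. It was -0.21 ± 0.35 for Star, -0.53 ± 0.12 for Insl3, -0.90 ± 0.15 for Fdx1 and -2.34 ± 0.22 for Scarb1. On this scale all knockout arrays lay above all wild-type arrays for Hsd3b1, as for 0.948% of all genes. They lay below for Insl3, Fdx1 and Scarb1, which was so for 90.4% of all genes and is therefore no result about these 3. The exact permutation p was 0.1, the smallest possible, for these 4 genes and between 0.2 and 0.7 for Hsd3b6, Hsd17b3 and Star. Insl3 was the highest gene on each knockout testis array, and whether its difference is compressed there was not tested. Without knockout replicate 3, 3 genes rather than 4 were below 0. Against the peritubular myoid list 0 of the 7 genes had a relative difference below 0. That list of 6 genes holds Actg2, which changed by -4.61 and lowers the list's median in knockout. The count of 0 therefore decides nothing about the 7 genes.

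**Figure D3:**
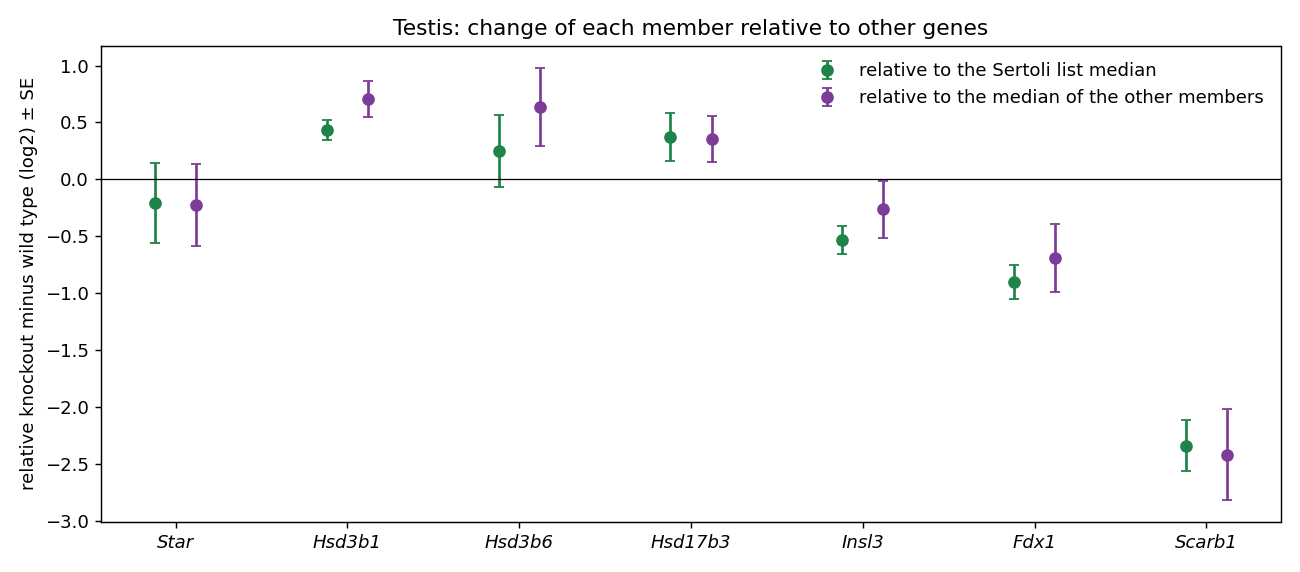
Knockout minus wild-type log2 difference in testis of each gene after subtracting, on each array, the Sertoli list median (green) or the median of the other 6 genes (purple), with bars of 1 SE from 3 against 3 arrays. Hsd3b1 lies above 0 on both measures (0.44 and 0.70), Fdx1 and Scarb1 lie below 0 on both.

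The testis arrays also differed in ways other than cell markers. For the Gapdh control probe sets, signal at the 3′ end exceeded that at the 5′ end by 0.55 ± 0.04 in knockout testis and by 0.98 ± 0.17 in wild-type testis (log2, SD, n = 3). The part of this gap in the results was not tested. Wild-type replicate 3 carried the epididymal genes Lcn5, Lcn8 and Adam7 at 11.7, 10.5 and 10.7, against 2.52 to 3.50 on the other 5 testis arrays. Without it, Star, Hsd3b1, Hsd3b6, Hsd17b3, Insl3 and Fdx1 were again called as higher and Scarb1 was not called, and the median of the 7 genes was 1.43. Without that array 9292 of all 17097 genes were called in either direction, against 9605 with it. The counts of rises and falls without it were 10 and 0 for steroid metabolism, 10 and 3 for cholesterol supply, 16 and 2 for signalling and regulation, 9 and 0 for further Leydig markers, 15 and 0 for Sertoli and 10 and 0 for macrophage markers. They were 3 and 1 for peritubular myoid, 1 and 0 for endothelial and 0 and 12 for spermatid genes.

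In liver none of the 7 genes was called in limma, and 0 had an unadjusted p below 0.05 (background: 2.42% of genes called). The median difference of the 7 genes was -0.07, against -0.00075 over all genes. Fdx1 stood at 10.31, 10.30 and 10.32 on knockout and at 10.40, 10.36 and 10.62 on wild-type liver arrays, so that all knockout arrays were lower, as for 8.8% of all genes, while 7.9% had all knockout arrays higher. Its difference was -0.15 ± 0.13 (95% interval -0.42 to 0.11). Scarb1, which in liver takes up cholesterol from high-density lipoprotein, stood at 7.96, 8.24 and 8.80 on knockout and at 8.01, 7.74 and 8.54 on wild-type arrays. These overlapped widely, with a difference of 0.24 ± 0.22 (95% interval -0.23 to 0.70). Hsd3b6 stood at 9.00, 9.06 and 9.14 on knockout and at 8.79, 9.31 and 9.70 on wild-type arrays, also overlapping, and its difference was -0.20 ± 0.18 (95% interval -0.57 to 0.17). Star, Hsd3b1 and Hsd17b3 were under 4 on all 6 liver arrays, so their liver differences, from -0.09 to 0.06, are between values near the floor. Insl3 was between 4.15 and 4.62 in liver, with a difference of 0.07 ± 0.20.

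The testis and liver differences were compared in the same fit (background: 48.5% of genes called, 28.6% with a higher and 19.9% with a lower value in testis). All 7 genes were called. The testis difference exceeded that of liver by 2.21 ± 0.25 for Hsd3b6 (adjusted p = 6.58e-08) and by 1.01 ± 0.18 for Fdx1 (adjusted p = 4.31e-05), both with clear signal in liver. Signal of relatives cannot be told apart from that of Hsd3b6 on its probe set. For Scarb1 the testis difference was lower by a log2 value of -0.82 ± 0.32 (adjusted p = 0.0356). Leaving out any of 7 single arrays ended the Scarb1 call: testis knockout replicate 2 or 3, testis wild-type replicate 1 or 3, liver knockout replicate 3, or liver wild-type replicate 1 or 2, with adjusted p between 0.0603 and 0.134. For Hsd17b3, Hsd3b1, Star and Insl3 the values were 2.20 ± 0.18, 2.14 ± 0.16, 1.64 ± 0.30 and 1.16 ± 0.28. The first 3 of these genes were near the floor in liver, and Insl3 was a little above it.

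**Figure D4:**
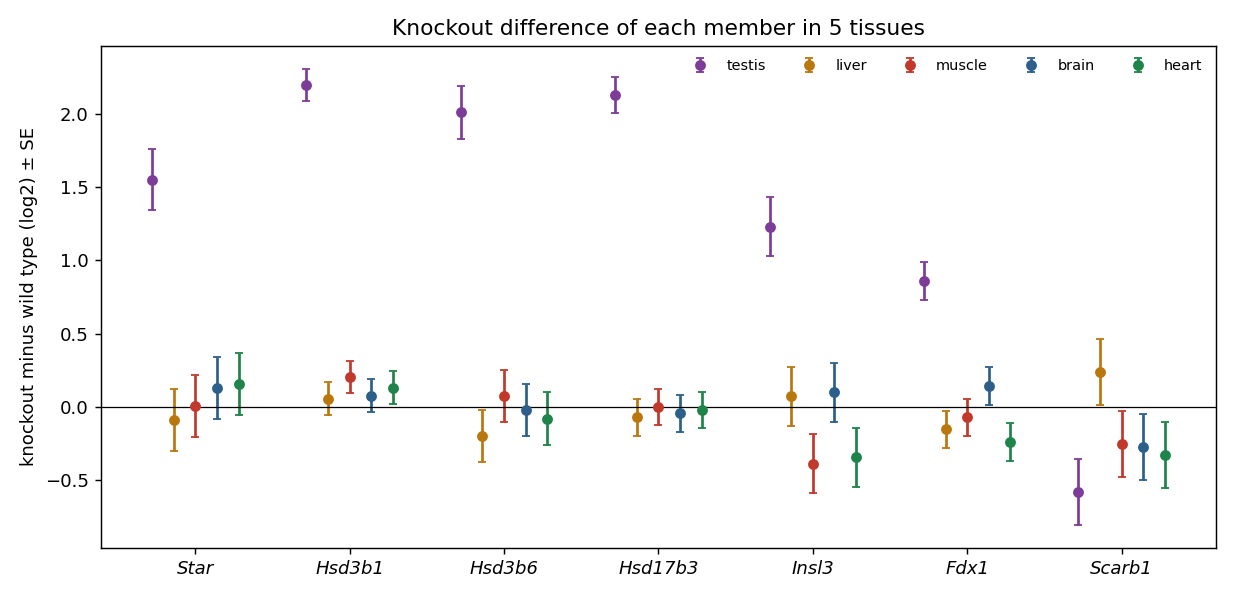
Knockout minus wild-type log2 difference of the 7 genes in testis, liver, muscle, brain and heart, with bars of 1 SE from the limma fit of all 30 arrays (3 arrays per group). Testis lies between 0.86 and 2.19 for 6 genes and at -0.58 for Scarb1, and every other tissue lies between -0.39 and 0.24.

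In muscle, brain and heart 0 of the 7 genes were called in limma and 0 had an unadjusted p below 0.05 (background: 1.54%, 0.415% and 2.18% of genes called; by direction 0.778% higher and 0.76% lower in muscle, 1.11% higher and 1.07% lower in heart). Differences in these tissues lay between -0.39 and 0.20. The lowest was Insl3 in muscle (-0.39 ± 0.20), and it was -0.03 without wild-type replicate 1, the array with spermatid genes. In heart Insl3 stood at 4.36, 4.63 and 4.66 on knockout and at 4.86, 4.87 and 4.94 on wild-type arrays, with no overlap (all knockout arrays lay below for 11.6% and above for 7.73% of all genes in heart), and its difference of -0.34 ± 0.20 did not pass (adjusted p = 0.499). Fdx1 in heart was likewise lower on all knockout arrays, at 9.86, 9.69 and 9.72 against 9.89, 9.96 and 10.1, with a difference of -0.24 ± 0.13 (adjusted p = 0.431). In muscle Scarb1 stood at 5.22, 5.23 and 5.29 on knockout and at 5.57, 5.59 and 5.35 on wild-type arrays, all knockout arrays being lower, as for 10% of all genes, while 9.36% had all knockout arrays higher. Scarb1 differed by -0.25 ± 0.22 in muscle, -0.27 ± 0.22 in brain and -0.33 ± 0.22 in heart. The Scarb1 difference was therefore negative in testis, muscle, brain and heart and positive in liver, and only that in testis passed the test.

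The 3-beta-hydroxysteroid dehydrogenase family, 7 genes with related sequences, was followed in both tissues. In testis Hsd3b1 and Hsd3b6 rose, and Hsd3b7, an enzyme of bile acid synthesis, rose by 0.93 ± 0.27 from a wild-type mean of 4.33 ± 0.73. Hsd3b2, Hsd3b3 and Hsd3b5 averaged between 2.61 and 3.07 in both genotypes and were not called, and Hsd3b4 changed by -0.51 ± 0.12 at levels near the floor (3.05 and 2.54). In liver Hsd3b5, a male-predominant liver form, stood at 9.88 ± 0.85 in wild type and 6.99 ± 1.09 in knockout and fell by 2.89 ± 0.34 (adjusted p = 5.86e-06), and Hsd3b2 fell by 0.62 ± 0.13 (adjusted p = 0.00754). The Hsd3b3 difference in liver was -0.63 ± 0.21 and was not called. Of all genes 1.5% fell in liver. The Hsd3b6 probe set carries the mark of probe sets that may match more than 1 transcript, so signal of its relatives cannot be told apart from its own. In liver these relatives include Hsd3b2, Hsd3b3 and Hsd3b5. In testis Hsd3b1 was high and rose by 2.19, close to the 2.01 of Hsd3b6. The Insl3 probe set carries the same mark.

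**Figure D5:**
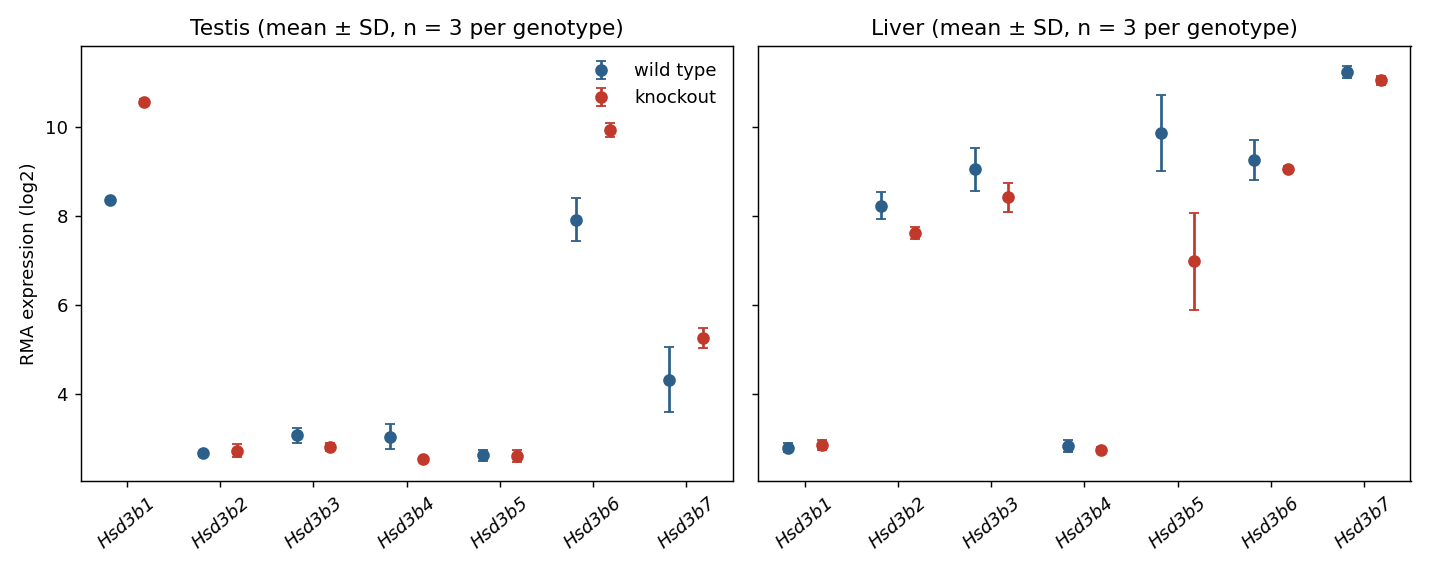
Mean log2 expression ± SD (n = 3 arrays) of the 7 genes of the Hsd3b family in testis (left) and liver (right) of wild-type and knockout mice. Hsd3b1 and Hsd3b6 are higher in knockout testis, while in liver Hsd3b5 is lower in knockout (6.99 against 9.88) and Hsd3b6 overlaps.

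Of the 15 genes of steroid metabolism 1 rose in liver, Cyp17a1, and 1 fell, Hsd3b2 (background in liver: 0.912% of all genes rose and 1.5% fell). Cyp17a1 rose by 1.93 ± 0.36 from 5.63 ± 1.43 to 7.56 (adjusted p = 0.00228 in limma). Its wild-type liver SD of 1.43 compares with 0.15 in knockout liver, and the SE pools the spread of all groups. The difference between its testis and liver changes was -0.23 and was not called (adjusted p = 0.756).

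Over all 30 arrays, which differ mostly by tissue, the 3 genes with the profile most like each member were found by Pearson correlation, as a description. For Hsd3b1 these were Akr1cl, Gm9112 and Nxf3 (r = 0.998 each), for Hsd17b3 the clone 1700011M02Rik, Serpina5 and Nr0b1 (0.995 to 0.996), and for Star the clone 4930550L24Rik, Lpar3 and Akr1cl (0.992). Akr1cl, an aldo-keto reductase, rose in testis by 2.39 and Serpina5, a protease inhibitor, by 2.47. For Hsd3b6 they were Gstm6, Bhmt and Fuca1 (0.975 to 0.992). For Insl3 they were Tesmin, the clone 4930444F02Rik and Top2a (0.992 to 0.995), of which Tesmin is a germ cell gene and Top2a a gene of dividing cells. For Fdx1 the genes were Smurf2, Ces1d and Ccdc58 (0.955 to 0.964), and for Scarb1 Pex11g, Cnppd1 and Rbks (0.956 to 0.965), among which Pex11g, of peroxisome division, fell in testis by 1.44.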

How the data were processed

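The authors deposited log2 expression values per probe set after RMA in R 2.14.0, per the submitters' processing notes. Whether all arrays went through RMA together is not given in the sources used here. The table held 45141 probe sets, 28898 of them with 1 gene symbol in the platform annotation, and no further normalization was applied. A gene took its probe set of highest mean over 30 arrays. Limma 3.58.1 in R 4.3.3 fitted the 10 group means together (20 residual degrees of freedom in the gene-wise fit), with two-sided tests and Benjamini-Hochberg adjustment over 17097 genes within each contrast at 0.05. SEs come from that fit and pool the spread of all groups. For Star, Hsd3b1 and Hsd17b3 the groups outside testis lay near the floor, so their SEs need not match the spread in testis. With testis fitted alone their adjusted p in limma was 0.0031, 7.96e-06 and 6.12e-05. Intervals at 95% use 20 degrees of freedom.

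The members and gene lists were chosen with earlier results of these data known. Named genes were the members, up to 3 called rises and 3 called falls per list in testis, up to 4 called in liver, and the 3 genes most correlated with each member. The labels do not say whether replicates are separate animals, so limma p-values measure only the spread between these samples, pooled over the 10 groups. Same-numbered arrays showed no steady pairing: in 0 of 5 tissues did the deviations of every pair correlate above 0.1. The correlations ran from -0.127 to 0.243, and with 3 arrays per group this check cannot exclude pairing. On simulated data of 17097 genes the testis contrast recovered 92 of 100 genes changed by 1 and 99 of 100 changed by 2, with 10 false calls. The simulation gave each gene the same spread in all groups and changed only those genes. In the data 56.2% of genes were called in testis, so these counts need not carry over. Alternatives changed the fit, prior, weights, scaling, filter, probe set rule and arrays used. The number of arrays limits the precision.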

Additional observations from a re-analysis of the deposited data

Results flagged for a closer look

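The knockout difference of each of the 7 measured genes differed between testis and liver by the test of that difference in limma. The testis minus liver values were 2.21 for Hsd3b6, 2.20 for Hsd17b3, 2.14 for Hsd3b1, 1.64 for Star, 1.16 for Insl3, 1.01 for Fdx1 and -0.82 for Scarb1. Star, Hsd3b1 and Hsd17b3 were near the floor in liver, and 48.5% of all genes were called in the same comparison. Groups of 3 arrays are too small for a test of single outlying arrays.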

How the results depend on the processing

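In testis all 7 genes were called under second quantile normalization, median centring, the trended robust prior, array weights and a fit of testis alone, and 6 to 7 with each array left out. They were called under each other probe set rule too. Of these genes only Star had more than 1 probe set, so those rules could not change the values of the others. The shared probe sets of Hsd3b6 and Insl3 stayed in use under every rule. With only genes above the median mean, 4 were called, the other 3 being removed by that filter; the testis minus liver and the wild-type testis minus liver comparisons also gave 4 for that reason, and 6 to 7 with arrays left out. With the replicate block, 7 genes were called in testis and 0 in liver. Array weights ended the call of Scarb1 in wild-type testis against liver (-0.34, adjusted p = 0.193 in limma). The block fit gave -0.12 for it (adjusted p = 0.718). In that comparison the block fit used levels fitted for replicate 1 in place of group means, so it does not test the call. In liver, muscle, brain and heart 0 of the genes were called under every alternative tried. No called difference of a member turned its direction. Relative to Sertoli markers 4 genes were below 0, 3 to 4 with arrays left out and 0 against the peritubular myoid list. The fall of Actg2 lowers the median of the myoid list, so that 0 is no check of the Sertoli result. The count below 0 relative to the other members is set near its value by the centring itself and is not given.

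Counts over all genes moved more. Testis gave 9605 and 6393 with only genes above the median mean, where wild-type testis against liver gave 7151 in place of 11222, fewer genes being tested. Fitted alone, liver gave 31 in place of 413, muscle 15 in place of 263, brain 25 in place of 71 and heart 83 in place of 372. The replicate block gave 137 in muscle and 41 in brain, array weights 190 in brain and 1146 in heart, and the filter 46 in brain. With an array left out muscle fell as low as 125, brain ranged from 34 to 158 and heart from 198 to 789. The cause was not tested.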
